A study of Arabidopsis thaliana with 16 samples.

Results

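The genes described here act in the polarity of asymmetric divisions in the stomatal lineage of Arabidopsis thaliana: BASL (AT5G60880), POLAR (AT4G31805), BRXL2 (AT3G14000) and the phosphatase genes BSU1 (AT1G03445), BSL1 (AT4G03080), BSL2 (AT1G08420) and BSL3 (AT2G27210). A transposase hypersensitive site (THS) is a stretch of open chromatin, and every THS that shared at least 1 bp with one of the 7 genes or with the 2000 bp upstream of its start was taken. This gave 19 of the 65351 THSs of the series. Openness was measured by ATAC-seq, in which a transposase cuts accessible DNA, in nuclei of 3-day-old Col-0 seedlings grown in continuous light. Nuclei were isolated by INTACT, in which a nuclear envelope tag driven by a cell-state promoter is biotinylated by BirA, made in all lines from the ACT2 promoter, and captured on streptavidin beads. The 16 libraries comprised 3 of protoderm (Proto, AtML1 promoter), 3 of meristemoid mother cells and early meristemoids (MMC, SPCH promoter), 4 of late meristemoids (M, MUTE promoter), 3 of guard mother cells (GMC, FAMA promoter) and 3 of mature guard cells (GC, GC1 promoter). A state is therefore whatever cells the promoter was active in, and the AtML1 promoter, though strongest in the protoderm, is also weakly active after that stage. A lower value in such a pool of nuclei can come from fewer open nuclei or from less cutting in each, and these cannot be told apart.

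BASL, BREAKING OF ASYMMETRY IN THE STOMATAL LINEAGE, gathers in a crescent at the cortex of a cell that is about to divide asymmetrically, away from the plane of division, and serves there as a scaffold. POLAR shares this crescent and brings the kinase BIN2, a negative regulator of brassinosteroid signalling, to it. BRXL2 belongs to the BREVIS RADIX family, whose members gather at the same cortical site in mutual dependence with BASL. BSU1 and its relatives BSL1, BSL2 and BSL3 are phosphatases with Kelch repeats that act against BIN2 in brassinosteroid signalling, and the family joins the BASL crescent, where it shifts the balance between BIN2 and the MAP kinase cascade of YDA. Asymmetric divisions take place in MMCs and early meristemoids and cease as a late meristemoid becomes a GMC, whereas a GMC divides once and symmetrically to form the pair of GCs.

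The 19 THSs were spread unevenly over the genes. BRXL2 had 6, BASL and BSL1 had 3 each, POLAR, BSU1 and BSL3 had 2 each, and BSL2 had 1. Of the 19, 14 lay mainly upstream of the gene start, 4 spanned a gene start (1 each at BRXL2, BSL1, BSL2 and BSL3) and 3 lay with their midpoint well inside a gene or at its end, between 944 and 3184 bp after the start. None of the BASL, POLAR or BSU1 THSs spanned the gene start, and no THS lay inside the genes BASL, POLAR and BSU1. Another gene was overlapped by 6 of the 19. Both POLAR THSs lay within the neighbour WRKY18, which encodes a transcription factor of defence responses: THS_47757, centred 648 bp upstream of the POLAR start, fell with 236 of its 238 bp in a coding exon of WRKY18. Whether such a THS belongs to the one gene or the other was not tested. The share of gene and upstream region covered by THSs was 32.2% at BRXL2, 27.9% at BASL and 12.3% at POLAR, and between 3.21% and 6.58% at the phosphatase genes.

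**Figure D1:**
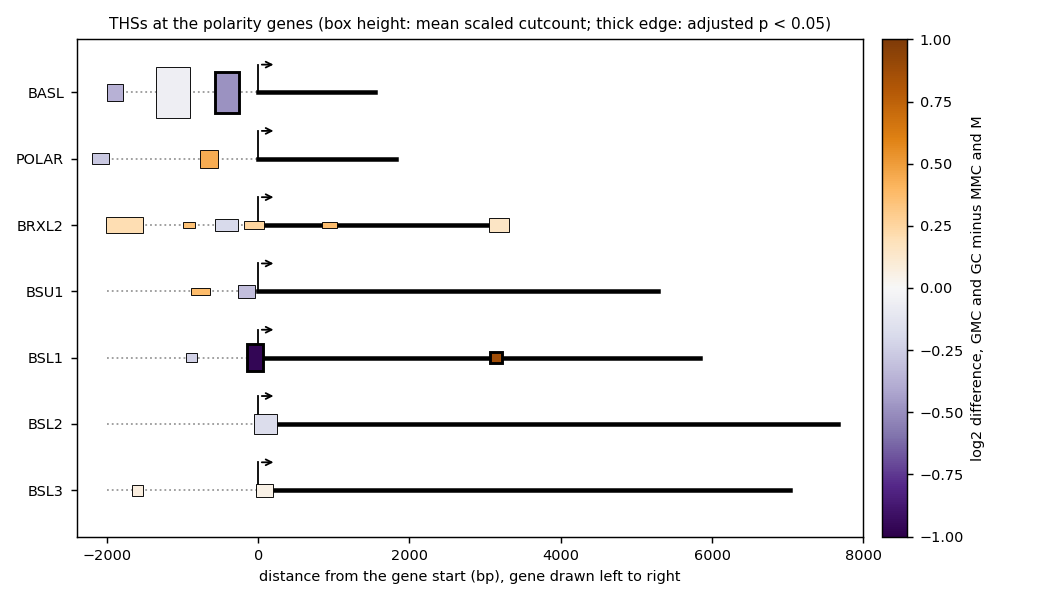
Map of the 19 THSs at the 7 genes, with the distance from the gene start in bp on the x axis and each gene drawn as a black line from left to right after a dotted line for the 2000 bp upstream. Boxes are THSs to scale in length, their height is proportional to the mean scaled cutcount over all 16 libraries, their colour gives the log2 difference of GMC and GC minus MMC and M, and thick edges mark the 3 THSs with an adjusted p under 0.05, 1 at BASL and 2 at BSL1.

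The sequences of the THSs on which the results turn are given 5′ to 3′ on the strand of the polarity gene, from the RefSeq TAIR10.1 assembly, whose nuclear chromosomes have the lengths of the TAIR10 build of the files. Capitals mark exact words found on either strand, which are CACGTG, the G-box, which is 1 form of the E-box bound by bHLH factors, and AGATAA, known as a site for GATA factors. GAGAGAGA, the GA repeat bound by BPC factors, was searched too and does not occur in those shown. The first set holds the 3 THSs that differed between GMC with GC and MMC with M. THS_63402 lies 415 bp upstream of BASL and 300 of its 321 bp are shown (chr5:24490101-24490400, minus strand). THS_41338 spans the start of BSL1, and only its 145 bp upstream of that start are shown (chr4:1365499-1365643, minus strand). THS_41337 covers a coding exon and an intron of BSL1 (chr4:1362282-1362431, minus strand).
THS_63402: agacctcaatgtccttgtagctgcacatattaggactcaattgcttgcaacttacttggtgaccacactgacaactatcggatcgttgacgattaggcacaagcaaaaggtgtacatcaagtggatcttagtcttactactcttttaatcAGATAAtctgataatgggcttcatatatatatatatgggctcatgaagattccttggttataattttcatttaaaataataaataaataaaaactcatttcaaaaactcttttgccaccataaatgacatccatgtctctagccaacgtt
THS_41338: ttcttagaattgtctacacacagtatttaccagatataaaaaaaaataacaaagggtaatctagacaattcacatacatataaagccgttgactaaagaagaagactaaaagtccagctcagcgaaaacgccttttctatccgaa
THS_41337: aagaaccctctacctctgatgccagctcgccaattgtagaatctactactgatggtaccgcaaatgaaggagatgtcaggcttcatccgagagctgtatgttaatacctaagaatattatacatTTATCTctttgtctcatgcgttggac

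The second set holds the strongest THSs of BASL and POLAR and both THSs of the list with CACGTG, which lie upstream of BRXL2, while other forms of the E-box were not searched. THS_63403 lies 1126 bp upstream of BASL, and its central 300 of 459 bp are shown (chr5:24490812-24491111, minus strand). THS_47757 lies 648 bp upstream of POLAR, and the 236 bp in the WRKY18 coding exon are shown (chr4:15384516-15384751, plus strand). THS_31125 and THS_31126 lie 416 and 916 bp upstream of BRXL2 (chr3:4634347-4634646, 300 of 310 bp, and chr3:4634922-4635071, whole, both minus strand).
THS_63403: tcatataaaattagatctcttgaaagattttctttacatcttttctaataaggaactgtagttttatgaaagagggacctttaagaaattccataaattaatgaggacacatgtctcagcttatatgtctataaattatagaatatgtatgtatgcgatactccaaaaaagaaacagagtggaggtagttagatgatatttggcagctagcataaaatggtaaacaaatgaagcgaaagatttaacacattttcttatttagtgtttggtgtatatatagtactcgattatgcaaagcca
THS_47757: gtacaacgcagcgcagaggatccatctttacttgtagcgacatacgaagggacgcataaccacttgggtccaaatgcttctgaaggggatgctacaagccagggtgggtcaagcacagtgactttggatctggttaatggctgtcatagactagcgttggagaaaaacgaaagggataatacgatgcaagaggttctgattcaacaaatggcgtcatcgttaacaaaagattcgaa
THS_31125: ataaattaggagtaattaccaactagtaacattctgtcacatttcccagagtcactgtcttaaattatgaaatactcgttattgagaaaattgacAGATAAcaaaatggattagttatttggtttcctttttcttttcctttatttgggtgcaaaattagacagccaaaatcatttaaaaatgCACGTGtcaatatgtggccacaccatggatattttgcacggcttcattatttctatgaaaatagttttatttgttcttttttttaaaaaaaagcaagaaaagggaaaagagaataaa
THS_31126: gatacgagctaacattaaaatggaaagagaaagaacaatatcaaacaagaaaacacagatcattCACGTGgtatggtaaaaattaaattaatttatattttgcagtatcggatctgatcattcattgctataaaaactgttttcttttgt

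Values are cutcounts, that is, transposition events on a THS, divided by the authors' size factor for the library, and are called scaled cutcounts. Total cutcounts on THSs lay between 3412226 and 13596509 per library, both extremes in M. The genes of the tag promoters served as a check of the labels: at the strongest THS of each of ATML1, SPCH, MUTE, FAMA and GC1, every library of that gene's own line lay above every other library (5 of 5), although the transgene carries another copy of the promoter, whose reads map to the same place. Replicates were less alike in MMC and in M, with pairwise correlations of log2 values down to 0.858 in both, against at least 0.93 for Proto pairs, 0.915 for GMC pairs and 0.922 for GC pairs. MMC replicate 3 and M replicate 1 fitted their states least well by limma's library weights (0.22 and 0.25). Of the marker lists for other seedling cells, the mesophyll list (17 THSs of RBCS1A, CAB2 and CA1) summed to between 2235 and 2316 scaled cutcounts in GMC and 2606 to 3013 in GC, against 3444 to 3763 in MMC and 2392 to 4575 in M. The root hair list summed to 447 to 547 in GMC and 578 to 600 in GC, against 621 to 689 in MMC and 510 to 757 in M. The mesophyll and root hair lists thus overlapped between GMC with GC and MMC with M, as did those for endodermis and phloem. In the mesophyll, root hair and endodermis lists this was through M alone, and every GMC and GC library lay under every MMC library. In the mesophyll list every GMC library also lay under every M library. The phloem list overlapped with MMC as well. The part of other seedling cells in the differences given here was not tested.

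Cutcounts were found at the polarity genes in every state. All 19 THSs had cutcounts in all 16 libraries, with scaled cutcounts from 7.78 to 277. No background level of cutting was set, so this does not show that each THS was open in each state. The share of all THSs with cutcounts in every library was not counted. Their median length was 230 bp, as for all THSs, and the median of their mean levels was 46.7 scaled cutcounts, against 53.9 for all THSs, so 7 of 19 lay above the median THS. Per kb of THS, BASL was the most open gene of the list in Proto, MMC, M, GMC and GC, with 317 ± 14.2 scaled cutcounts per kb in GMC and 453 ± 46.8 in Proto (SD, n = 3 each). BSL1 was next in each state by its mean, with 250 ± 8.59 in GMC and 367 ± 47.0 in Proto (SD, n = 3 each). It was close to BASL in M (391 ± 35.9 and 399 ± 59.2, SD, n = 4 each). In GMC it was close to POLAR, with 246 ± 24.3 (SD, n = 3). BRXL2 was the least open per kb in Proto, MMC, M and GC, with 112 ± 22.7 in MMC and 131 ± 33.3 in Proto (SD, n = 3 each), and BSU1 had about the same level as BRXL2 in GMC (139 ± 38.0 and 141 ± 7.58, SD, n = 3 each).

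Differences between the states were mostly small. Between the state with the highest and the state with the lowest log2 mean the 19 THSs differed by a median of 0.61, against 0.64 for all THSs, and 14 of 19 lay under the median of all. The extremes of the list were THS_41338 and THS_41337 of BSL1, with ranges of 1.19 and 1.14, above 93.2% and 91.4% of all THSs, and THS_22277 of BSL3, with 0.24, above only 3.64%. When the 5 states were put in order of their means at each THS, the libraries of neighbouring states overlapped in 73 of 76 pairs. Neighbours in such an order are the closest states by construction. The count was not made for all THSs, so it does not set these 19 apart. The 3 pairs without overlap were Proto over GC at THS_41338 of BSL1, Proto over GMC at THS_63404 of BASL and GC over MMC at THS_31126 of BRXL2. In limma's F test of the 5 state means, with Benjamini-Hochberg adjustment over all 65351 THSs, none of the 19 passed an adjusted p of 0.05 (2 of 19, or 10.5%, had an unadjusted p under 0.05, against 24.9% of all THSs). Among all THSs 0.0275% passed. The lowest adjusted p of the list was 0.0758, at THS_41338 of BSL1, and it passed under 6 of 27 alternatives, among them those without MMC replicate 2 (adjusted p = 0.00732, limma), without MMC replicate 3 (0.0159) and without M replicate 1 (0.000650). Without those libraries 14.4%, 5.5% and 26.4% of all THSs passed as well.

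The comparison of GMC and GC with MMC and M sets the 2 latest states, after the asymmetric divisions, against the 2 states before them, of which M holds late meristemoids in which those divisions come to an end. Of the 19 THSs, 2 were lower in GMC and GC, THS_41338 over the BSL1 start and THS_63402 upstream of BASL, and 1 was higher, THS_41337 inside BSL1 (limma, adjusted p under 0.05). Of all THSs, 16.6% were lower and 16.7% were higher, so 2 of 19 (10.5%) and 1 of 19 (5.26%) were not above the background. The other 16 did not pass, and the median log2 difference of the 19 was 0.05, against 0.02 for all THSs, with 10 of 19 above 0. At none of the 19 were the GMC and GC libraries wholly apart from the MMC and M libraries, while 0.978% of all THSs were apart with GMC and GC lower and 2.04% with GMC and GC higher. No call outlasted a fit with the share of reads in peaks that the study lists for each library as a covariate, an alternative chosen after seeing the data. That fit left 0 of 19 and, of all THSs, 10 in place of 21759.

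**Figure D2:**
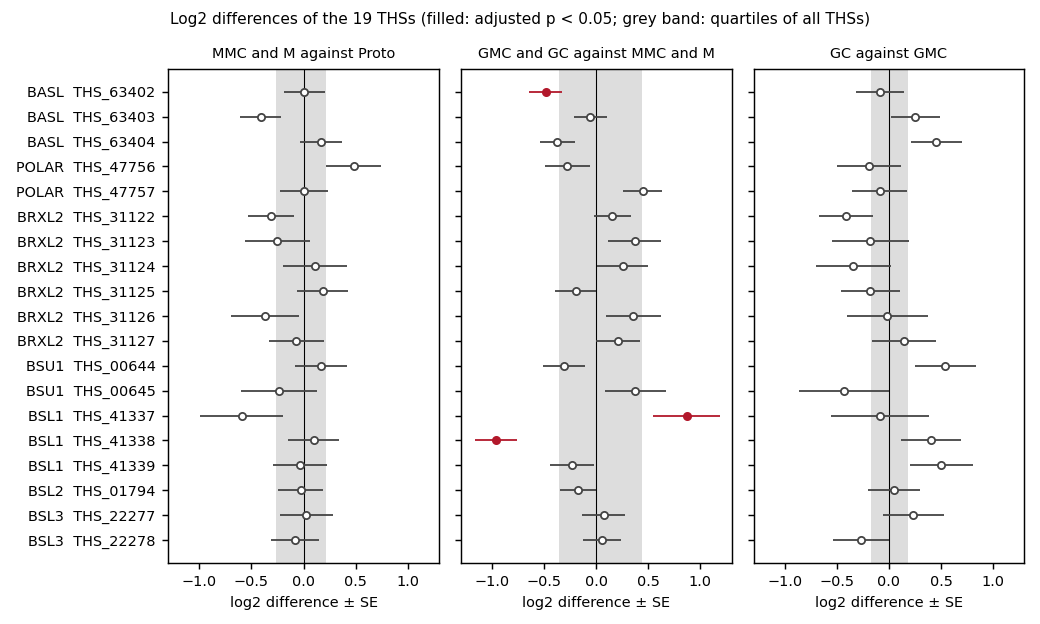
Log2 differences of the 19 THSs in 3 comparisons, each on its own x axis as the later minus the earlier states with the standard error as bar. Filled red points have an adjusted p under 0.05 (3 of 19 in the comparison of GMC and GC with MMC and M, 0 of 19 in the other 2), and the grey band spans the values between the lower and the upper quartile of all 65351 THSs.

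BSL1 carried the largest differences of the list, and in opposite directions at its start and in its body. THS_41338 (chromosome 4, 1365442 to 1365643), which covers 145 bp upstream and 57 bp of the 5′ untranslated region, had 44.3, 61.6 and 47.9 scaled cutcounts in the GMC libraries and 50.6, 69.0 and 87.4 in the GC libraries, against 96.1, 99.4 and 149 in MMC and 63.4, 135, 139 and 159 in M. Proto had 88.6, 123 and 113. Of the 7 MMC and M libraries 6 lay above every GMC and GC library, and the exception was M replicate 1, with 63.4. The means were 60.1 ± 16.2 in GMC and GC (SD, n = 6) and 120 ± 34.6 in MMC and M (SD, n = 7), and the log2 difference was -0.96 (standard error 0.20, adjusted p = 0.00485, limma). The 3 early states were close to each other, with means of 108 in Proto, 115 in MMC and 124 in M, and overlapped, as did GMC (51.3) and GC (69.0). This was the steadiest result of the list. The call held without each library in turn (adjusted p from 4.33e-05 to 0.0216) and was lost only with the listed share of reads in peaks as a covariate, which left -0.56 (adjusted p = 0.427).

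THS_41337 (chromosome 4, 1362282 to 1362431) lies 3142 bp inside BSL1, with 95 bp of coding exon and 55 bp of intron. It had 54.2, 42.7 and 53.0 scaled cutcounts in GMC and 59.0, 40.9 and 42.2 in GC, against 30.5, 43.3 and 7.78 in MMC and 56.6, 32.1, 34.7 and 13.3 in M. Proto had 32.6, 43.7 and 43.6. The GMC and GC libraries sat within a narrow span, and the lowest values were those of MMC replicate 3 and M replicate 4. The log2 difference was 0.87 (standard error 0.32, adjusted p = 0.0422, limma). The call was lost in 13 of the 16 fits without 1 library, with an adjusted p of 0.114 without MMC replicate 3. The remaining BSL1 THS, THS_41339, lies 878 bp upstream in an untranslated exon of AT4G03090, and its log2 difference was -0.23 (standard error 0.21, adjusted p = 0.378, limma).

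**Figure D3:**
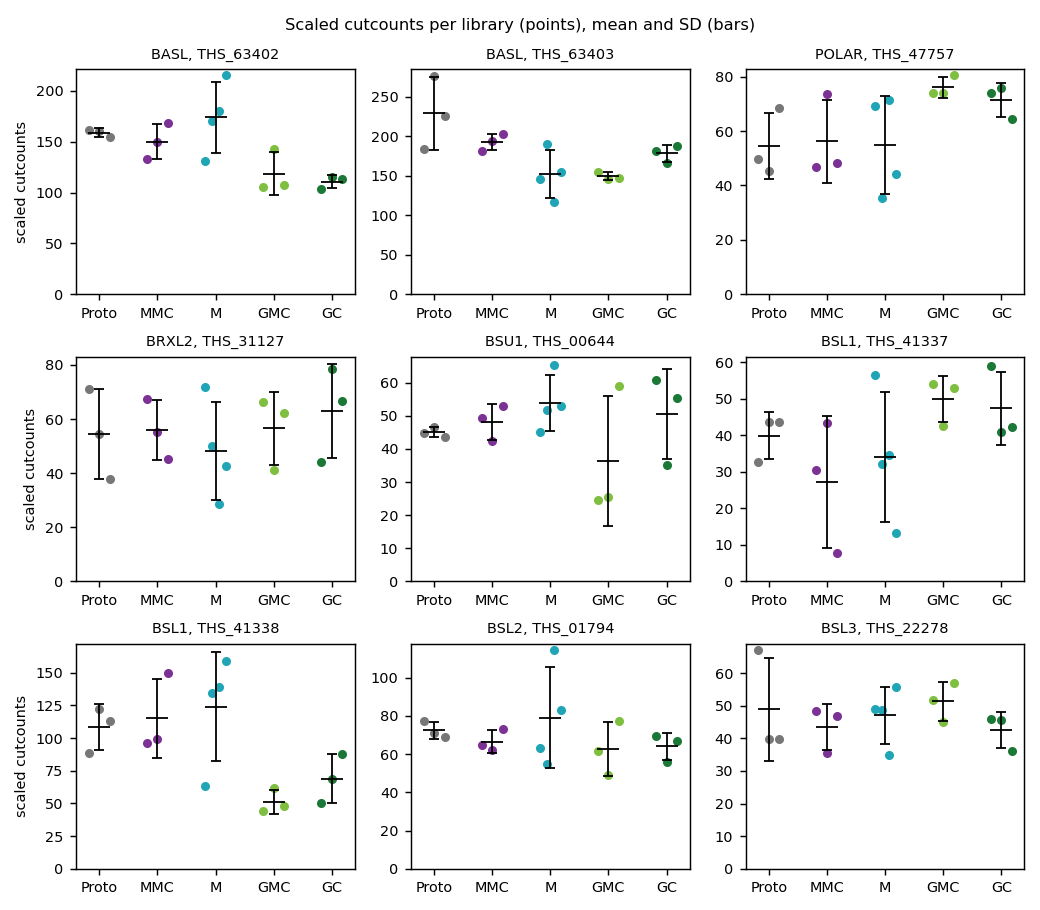
Scaled cutcounts (y axis, from 0) in each library of the 5 states (x axis) at the strongest THS of each gene and at the other 2 THSs with a call. Points are libraries, and bars give mean and SD. At THS_41338 of BSL1 the GMC and GC libraries lie between 44.3 and 87.4 and the MMC and M libraries between 63.4 and 159, whereas at THS_22278 of BSL3 all states share 1 range.

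BASL, the polarity scaffold, was less open in GMC and GC than in MMC and M at the THS nearest to its start. THS_63402 (chromosome 5, 24490091 to 24490411) had 106, 143 and 107 scaled cutcounts in GMC and 103, 116 and 114 in GC, against 133, 150 and 168 in MMC and 131, 170, 180 and 215 in M. Proto was close to the MMC and M libraries, with 162, 161 and 154. GMC replicate 2, with 143, was the only library of GMC and GC to reach into the range of MMC and M, and 5 of the 7 MMC and M libraries lay above all of GMC and GC. The means were 115 ± 14.6 in GMC and GC (SD, n = 6) and 164 ± 29.5 in MMC and M (SD, n = 7), with a log2 difference of -0.49 (standard error 0.16, adjusted p = 0.0223, limma). The call was lost without MMC replicate 3, GMC replicate 1, GMC replicate 3 or GC replicate 1, with an adjusted p of up to 0.0629, and cyclic loess normalization left -0.13 (adjusted p = 0.424). The difference was also lost with the listed share of reads in peaks as a covariate (-0.28, adjusted p = 0.619).

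The strongest BASL THS, THS_63403 (chromosome 5, 24490733 to 24491191), showed another order. Its highest library was Proto replicate 2, and the Proto libraries had 184, 277 and 225 scaled cutcounts. The MMC libraries had 181, 194 and 202 and the M libraries 146, 190, 116 and 155, followed by GMC with 155, 146 and 147 and GC with 182, 166 and 187. GMC and GC did not stand apart from MMC and M, with a log2 difference of -0.06 (standard error 0.16, adjusted p = 0.795, limma), whose sign changed under 4 alternatives. The difference of MMC and M from Proto was -0.41 (standard error 0.20), the only one of the 19 in that comparison with an unadjusted p under 0.05 (0.0463), and it did not pass the adjustment (adjusted p = 0.459, limma). The distal THS_63404, 1890 bp upstream, had a mean of 53.9 ± 12.6 in GMC and GC (SD, n = 6) and 69.4 ± 13.0 in MMC and M (SD, n = 7), with a log2 difference of -0.37 (standard error 0.17, adjusted p = 0.0772, limma). Summed over its 3 THSs, BASL had 313 ± 14.1 scaled cutcounts in GMC and 351 ± 18.5 in GC, against 413 ± 19.5 in MMC, 395 ± 58.6 in M and 449 ± 46.3 in Proto (SD, n = 3 each and n = 4 for M). The GMC libraries, from 300.4 to 328, all lay just under the lowest M library, with 334, and the GC libraries reached 373. No test was run on these sums. How many other genes show such a gap was not counted, so it does not set BASL apart.

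POLAR, which recruits BIN2 to the crescent, had its higher values on the other side. At THS_47757 (chromosome 4, 15384514 to 15384751) the libraries had 73.9, 73.9 and 80.5 scaled cutcounts in GMC and 74.0, 76.0 and 64.4 in GC, against 46.7, 73.8 and 48.2 in MMC and 69.1, 35.2, 71.5 and 44.2 in M. Proto had 49.9, 45.2 and 68.3. GMC and GC formed a narrow band, while MMC and M held 3 libraries from 69.1 to 73.8 and 4 from 35.2 to 48.2. In 5 of the 6 GMC and GC libraries the value was above all of MMC and M, where the highest, MMC replicate 2, fell just short of the lowest of those 5. The log2 difference was 0.44 (standard error 0.18, adjusted p = 0.0605, limma) and so did not pass. It passed in 6 of 28 alternatives. With library weights it was 0.69 (adjusted p = 7.55e-05, limma), where 51.8% of all THSs passed. With equal library totals it was 0.55 (adjusted p = 0.0297, limma), where 32.2% of all THSs passed. THS_47756, 2084 bp upstream and mostly in untranslated sequence of WRKY18, ran the other way, with a mean of 36.8 ± 9.59 in GMC and GC (SD, n = 6), 45.9 ± 14.3 in MMC and M (SD, n = 7) and 31.0 ± 3.14 in Proto (SD, n = 3). Its log2 difference was -0.28 for GMC and GC against MMC and M (standard error 0.21, adjusted p = 0.305, limma).

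BRXL2, the BREVIS RADIX family member, had the most THSs and no call. Its strongest THS, THS_31127 (chromosome 3, 4635602 to 4636091), is nearer to the divergent gene CID4, whose start is 216 bp away, than to BRXL2, at 1766 bp. It had 66.5, 41.0 and 62.1 scaled cutcounts in GMC and 44.0, 78.4 and 66.7 in GC, against 67.4, 55.1 and 45.1 in MMC and 72.0, 50.1, 28.6 and 42.5 in M. Proto had 71.3, 54.4 and 37.7. All 5 states overlapped, and the log2 difference of GMC and GC from MMC and M was 0.21 (standard error 0.21, adjusted p = 0.440, limma). The other 5 BRXL2 THSs averaged between 20.5 and 51.6 scaled cutcounts over all libraries. THS_31126, 1 of the pair with CACGTG, had 21.5, 23.4 and 19.2 in GC, above the MMC libraries with 10.8, 18.7 and 9.34, while the M libraries spread from 16.4 to 36.8. Log2 differences over the 6 THSs ran from -0.20 to 0.37, with standard errors from 0.18 to 0.27 and adjusted p from 0.25 to 0.513 (limma). Summed over its 6 THSs, BRXL2 had 237 ± 12.7 scaled cutcounts in GMC and 212 ± 16.9 in GC, against 188 ± 38.1 in MMC, 224 ± 41.6 in M and 219 ± 56.0 in Proto (SD, n = 3 each and n = 4 for M).

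Among the other phosphatase genes no THS passed any of the tests. BSU1, the founding member of the family, had its strongest THS just before the start (THS_00644, chromosome 1, 859742 to 859971), with 24.6, 25.4 and 59.1 scaled cutcounts in GMC and 60.9, 35.1 and 55.2 in GC, against 49.4, 42.3 and 52.9 in MMC and 45.1, 51.7, 65.4 and 53.0 in M. Proto had 44.8, 46.7 and 43.6. The lowest libraries were GMC replicates 1 and 2, but GMC replicate 3 was as high as the M libraries, and the log2 difference of GMC and GC from MMC and M was -0.31 (standard error 0.20, adjusted p = 0.219, limma). GC exceeded GMC by 0.54 (standard error 0.30, adjusted p = 1, limma), the largest difference of the list in that comparison. It ranged from 0.33 without GMC replicate 1 to 0.94 without GMC replicate 3.

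BSL2 and BSL3, which are close relatives of each other, had THSs over their 5′ untranslated regions that varied little. THS_01794 of BSL2 (chromosome 1, 2649402 to 2649711) had 61.5, 49.3 and 77.4 scaled cutcounts in GMC and 69.3, 56.1 and 66.7 in GC, against 64.7, 62.0 and 73.1 in MMC and 63.4, 54.8, 114 and 83.4 in M. Proto had 77.4, 71.3 and 69.0. Only M replicate 3, with 114, stood out, and the log2 difference of GMC and GC from MMC and M was -0.18 (standard error 0.17, adjusted p = 0.428, limma). THS_22278 of BSL3 (chromosome 2, 11629742 to 11629971) had 51.7, 45.2 and 57.0 in GMC and 45.9, 45.6 and 36.0 in GC, against 48.5, 35.4 and 46.7 in MMC and 49.0, 48.6, 34.7 and 55.8 in M. Proto had 67.2, 39.8 and 39.7. The log2 difference was 0.05 (standard error 0.18, adjusted p = 0.830, limma). THS_22277, 1600 bp upstream of BSL3 in an untranslated exon of AT2G27200, gave 0.07 (standard error 0.20, adjusted p = 0.80, limma).

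Neither the entry into the dividing states nor the last step of the lineage gave a call at these genes. For MMC and M against Proto, 0 of the 19 THSs passed in limma (1, or 5.26%, at an unadjusted p under 0.05, against 10.7% of all THSs), with log2 differences from -0.59 to 0.48, and among all THSs 0.0107% were higher and 0.00459% lower. The largest were a lower value at THS_41337 of BSL1 (-0.59, standard error 0.40) and a higher one at THS_47756 of POLAR (0.48, standard error 0.26). For GC against GMC, 0 of 19 passed in limma (0 at an unadjusted p under 0.05, against 1.89% of all THSs), with log2 differences from -0.43 to 0.54 and standard errors from 0.23 to 0.47, and among all THSs 0.00459% were higher and 0.00306% lower. Differences smaller than these standard errors allow were not detectable with 3 or 4 libraries per state.

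Among known partners of these genes, 24 of 64 THSs (37.5%) differed between GMC with GC and MMC with M, near the 33.3% of all THSs. The partner list held 12 genes: the other BREVIS RADIX genes BRX, BRXL1, BRXL3 and BRXL4, the GSK3-like kinase genes BIN2, BIL1 and BIL2, and the MAP kinase genes YDA, MKK4, MKK5, MPK3 and MPK6. Of the 64, 14 (21.9%) were lower and 10 (15.6%) higher in GMC and GC than in MMC and M (limma, adjusted p under 0.05), beside 16.6% and 16.7% of all THSs. These calls moved with the processing like those of the polarity genes: 14 of 64 were called without MMC replicate 3, 37 without M replicate 1 and 0 with the listed share of reads in peaks as a covariate. Of the MAP kinase kinase and MAP kinase genes, which act below YDA, MKK4 had 1 of 5 THSs lower, MKK5 2 of 3, MPK3 2 of 5 and MPK6 2 of 2, and none higher. The log2 difference was above 0 without a call at 2 THSs of MKK4, 1 of MKK5 and 1 of MPK3. MKK5 had the largest, with a log2 difference of -0.97 at THS_32970 (standard error 0.22, adjusted p = 0.00608, limma), and MPK6 had -0.71 at THS_26920 (standard error 0.17, adjusted p = 0.00684, limma). At BIN2, the kinase that POLAR brings to the crescent, 3 of 7 THSs were lower and 1 was higher. YDA, the MAP kinase kinase kinase, had 2 of 7 higher and 1 lower. The BREVIS RADIX genes were mixed, with 6 THSs higher and 3 lower of 28, led by THS_24508 of BRXL1 (1.18, standard error 0.28, adjusted p = 0.00749, limma). BIL1 had 1 of 4 higher, and BIL2 had no call among its 3. None of the 64 passed in the other 3 tests (limma), where 17 (26.6%), 5 (7.81%) and 2 (3.12%) had an unadjusted p under 0.05 in the F test, in MMC and M against Proto and in GC against GMC, beside 24.9%, 10.7% and 1.89% of all THSs.

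**Figure D4:**
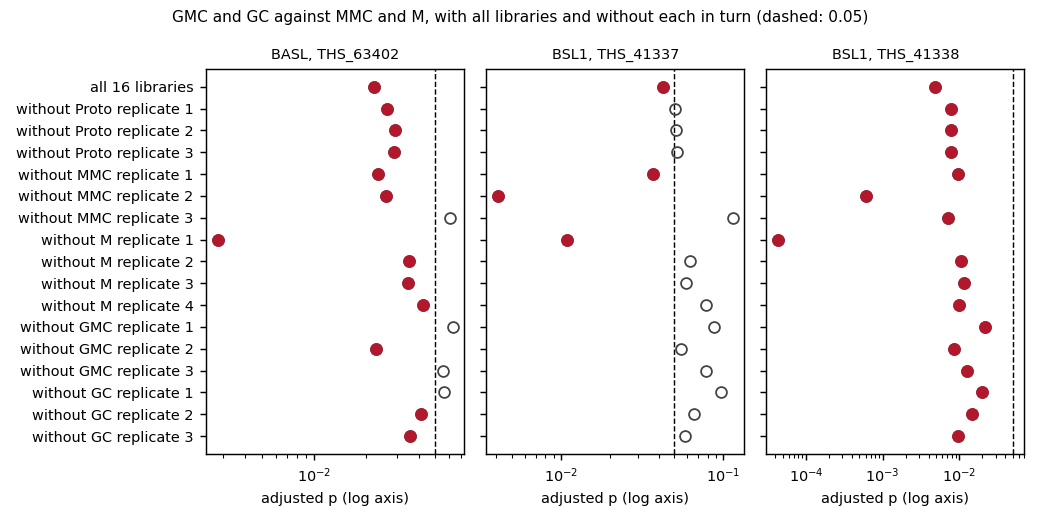
Adjusted p (x axis, log scale) of the 3 THSs called in GMC and GC against MMC and M, with all 16 libraries and without each library in turn (y axis). Filled red points lie under 0.05, the dashed line. THS_41338 of BSL1 stays under it in 16 of 16 fits, THS_63402 of BASL in 12 and THS_41337 of BSL1 in 3.

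The THSs elsewhere in the genome that followed the polarity genes most closely over the 16 libraries were sought for the strongest THS of each gene, by Pearson correlation of log2 values. For THS_41338 of BSL1 they lay nearest to AT5G53310, EDS1 and DGK7, each with r = 0.97. For THS_63403 of BASL the nearest starts were those of RIPK (0.96, 5644 bp away), AT1G32690 (0.90, 5332 bp) and AT5G40910 (0.90, 898 bp). For THS_47757 of POLAR they were those of LSH3 (0.91, 384 bp), AT1G76980 (0.91, 2063 bp) and JAC1 (0.90, 372 bp). For BSL3 the closest had r = 0.93 and for BSL2 0.91, whereas BRXL2 and BSU1 had none above 0.89 and 0.87. These are the highest of 61796 to 61810 correlations for each THS, over points that share library depth and quality, and are a description.

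Each of the 3 sequence words occurred in a minority of the 19 THSs, though more often than in all THSs. In the central 150 bp, CACGTG occurred in 2 of 19 THSs, against 5.86% of all THSs, and both were the upstream THSs of BRXL2 shown above. GAGAGAGA occurred in 2 of 19, against 3.65%, and over the whole THSs in 3, THS_41339 of BSL1, THS_01794 of BSL2 and THS_22278 of BSL3. AGATAA occurred in 5 of 19, against 13.7%, and over the whole THSs in 7, at every gene except BSU1. Of the 3 THSs with a call, THS_63402 of BASL and THS_41337 of BSL1 hold an AGATAA word and THS_41338 of BSL1 holds none of the words. All 3 words were searched as exact letters on both strands. The counts are small and no test was run on them, and whole THSs outside the list were not searched.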

How the data were processed

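ATAC-seq libraries came from INTACT nuclei, and the study calls the replicates biological. According to the paper and the submitters' processing notes, the authors mapped reads to TAIR10 with Bowtie2, took peaks from MACS2 together with open regions published before as 1 set of THSs and counted cut positions on each. The deposited values are a signal, these cutcounts divided by the authors with a DESeq2 size factor. Per library, 100% of values were a whole number of steps of 1 size, within a tolerance of 0.01. The step was itself estimated from these values, and a separate check did not accept whole counts for some libraries. No test on counts was therefore run. A further value column (1) matched no library and was not used.

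Starts were made 1-based. Genes came from the RefSeq annotation of TAIR10.1, in which no THS ends past a chromosome end (0). Values plus a pseudocount of 1 were put on the log2 scale, so that changes of low THSs are understated, and fitted with limma 3.58.1 (R 4.3.3) with the 5 state means, trend and robust set and no filter. P-values were two-sided and adjusted by Benjamini-Hochberg over 65351 THSs, with a threshold of 0.05. The fit was also run on simulated counts, drawn with the same dispersion for every THS and library. The real libraries differed in how well they fitted their states, so that run is no check of the calls given here. For each gene the strongest THS and every THS with a call were described, and the 3 most similar THSs over 10 kb away with a mean of at least 20. The genes, lists and tests were chosen with earlier results of these data known. Alternatives were another pseudocount (5), equal totals, cyclic loess, a filter at 20, plain eBayes, library weights, the replicate number, the share of cutcounts in the top 10% of THSs as covariate, a threshold of 0.01, other windows (1000 and 3000 bp, or midpoints), only the compared states, and each library left out. Added after seeing the data were the listed share of reads in peaks as covariate and leaving out both MMC replicate 3 and M replicate 1. Python 3.11.15, numpy 2.4.6, pandas 2.3.3 and matplotlib 3.10.9 were used.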

Additional observations from a re-analysis of the deposited data

Results flagged for a closer look

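At THS_63404, the distal THS upstream of BASL, M replicate 4 had 93.3 scaled cutcounts, while the other 3 M libraries lay between 57.6 and 63.3, so that this library stood far from its group (gap over range 0.839). Of the groups of 4 or more libraries, 19 were looked at in this way, 1 for each THS, and chance flags about 1 in 20.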

How the results depend on the processing

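Counts of the 19 THSs with a call moved with the processing. In the F test of the 5 states the count was 0, 8 with library weights, 1 with the replicate block, 3 without both MMC replicate 3 and M replicate 1, and 0 to 2 without 1 library each (1 without MMC replicate 2, 1 without MMC replicate 3, 2 without M replicate 1). In GMC and GC against MMC and M it was 3, 7 with library weights, 1 with the share of cutcounts in the top THSs as covariate, 1 at a threshold of 0.01, 0 with the listed share of reads in peaks as covariate, 5 without both MMC replicate 3 and M replicate 1, and 1 to 5 without 1 library each (5 without M replicate 1 and 1 without each of MMC replicate 3, GMC replicate 1, GMC replicate 3 and GC replicate 1). Over all THSs the shares moved too. In the F test they were 51% with library weights, 4.68% with the block, 34.6% without both libraries, and 14.4%, 5.5% and 26.4% without MMC replicate 2, MMC replicate 3 and M replicate 1. In GMC and GC against MMC and M they were 51.8% with library weights, 7.64% with the top THSs covariate, 7.18% at 0.01, 40.1% without both libraries, 48.4% without M replicate 1, and 16.2% to 23.6% in the other 4 fits named. The causes were not tested. The listed reads multiplied by the listed share do not match the deposited cutcounts within a factor of 1.5 in 3 libraries. Whether the listed reads or the listed share are off was not tested. Over all THSs the listed share as covariate left 10 calls in place of 21759. Leaving out both MMC replicate 3 and M replicate 1 gave 26191. MMC and M against Proto and GC against GMC stayed at 0 in all 31 alternatives each. THS_41338 of BSL1 kept its call in GMC and GC against MMC and M in 27 of 28 alternatives, THS_63402 of BASL in 20 and THS_41337 of BSL1 in 9. Signs changed only at THSs with no call. THS_63403 gave 0.0556 with equal totals, 0.35 with cyclic loess, 0.0546 with the top THSs covariate, and -0.12 to 0.000891 without 1 library each. THS_22278 gave -0.13 with cyclic loess, -0.0208 with library weights, -0.17 with the top THSs covariate, and -0.0150 to 0.11 without 1 library each. THS_31127 gave -0.14 with the top THSs covariate and -0.13 with the listed share, and THS_01794 gave 0.0489 with the listed share. Equal totals moved the median difference of all THSs to 0.13 in GMC and GC against MMC and M and to -0.13 in MMC and M against Proto. Whether the replicate numbers pair the libraries was not settled. Of the same-numbered pairs, 9 of 30 had a correlation of deviations above 0.1 (-0.24 to 0.39, mean 0.064). Of the pairs with different numbers, 14 of 72 did (-0.68 to 0.64, mean -0.028). As a block the replicate number fits M replicate 4 exactly, since no other state has a replicate of that number. Depth of 3412226 to 13596509 cutcounts and 3 or 4 libraries per state limit what could be seen at the weakest THSs.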
